A study of Mus musculus with 6 samples.

Results

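The aldehyde dehydrogenases are enzymes that oxidize reactive aldehydes to carboxylic acids with a nicotinamide cofactor. Here 10 of them (Aldh1a1, Aldh1a2, Aldh1a3, Aldh1a7, Aldh1l2, Aldh2, Aldh3a1, Aldh3a2, Aldh3b1 and Aldh7a1) were followed through every probe that the platform annotation pairs with their symbols. These 10 genes had 20 probes, of 19057 genes and 45281 probes on the array. RNA was compared between Dnmt1-/- and Dnmt1+/+ mouse embryonic fibroblasts (MEFs), with 3 arrays each, on Illumina whole-genome mouse BeadChips. Both kinds of MEFs are Trp53-/-, and the Dnmt1-/- cells carry on both chromosomes a hypomorphic form of Dnmt1, the maintenance DNA methyltransferase. The strain background is unknown per the labels, and the age of the embryos is not given in the sources used here. The sources point to a single line of cells per genotype, and an effect of the line cannot be told apart from one of the genotype. RNA was isolated in triplicate, with no word on separate cultures, and the p-values below therefore reflect only the spread among these arrays, which may be technical. The genes were chosen by their measured difference between these same arrays, so their differences are given as a description with no p-value. Calls named for them (adjusted p under 0.05) come from the contrast that chose them and are no support.

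The family divides by substrate and by place in the cell. The Aldh1a enzymes of the cytosol turn retinaldehyde into retinoic acid, the ligand of the retinoic acid receptors, and so set where retinoid signalling takes place in the embryo. The Aldh3 enzymes act on medium- and long-chain aldehydes that arise from membrane lipids, and Aldh3a1 is a classic inducible gene of the aryl hydrocarbon receptor in rodents. Aldh2 and Aldh1l2 lie in mitochondria, where Aldh2 clears acetaldehyde and lipid peroxidation products and Aldh1l2 oxidizes formyltetrahydrofolate. Aldh7a1 acts in the breakdown of lysine.

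Dnmt1 copies methylation at CpG dinucleotides, so the CpGs of 2 promoters of the family are shown here, each as the 250 bases before the gene's start in RefSeq (assembly GRCm38.p6). They belong to the Aldh3 gene with the widest difference between the groups and to one whose difference was modest. CpGs are in capitals. The Aldh3b1 window (chr19:3929779-3930028, minus strand) holds 5 CpGs and the Aldh3a2 window (chr11:61267187-61267436, minus strand) holds 18.
Aldh3b1: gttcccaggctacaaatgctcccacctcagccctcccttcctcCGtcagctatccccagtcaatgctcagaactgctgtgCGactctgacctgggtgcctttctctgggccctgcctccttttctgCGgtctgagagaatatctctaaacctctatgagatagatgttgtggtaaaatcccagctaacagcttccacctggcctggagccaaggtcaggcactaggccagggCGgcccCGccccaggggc
Aldh3a2: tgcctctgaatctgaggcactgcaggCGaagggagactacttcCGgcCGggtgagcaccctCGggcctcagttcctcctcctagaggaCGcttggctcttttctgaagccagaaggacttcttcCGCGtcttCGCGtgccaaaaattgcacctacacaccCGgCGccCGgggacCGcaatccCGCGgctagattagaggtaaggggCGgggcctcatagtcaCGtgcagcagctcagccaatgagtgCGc
Methylation of these CpGs was not measured in the data analysed here. Of the 5 CpGs upstream of Aldh3b1 the last 2 lie close to the gene's start, whereas the 18 upstream of Aldh3a2 are spread along the window.

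On the arrays, mean raw signal was 396.6, 258.6 and 217.1 in Dnmt1-/- replicates 1, 2 and 3, so that 2 Dnmt1-/- arrays were dimmer than any Dnmt1+/+ array, which lay between 325.5 and 357.1. Each array had 14699 to 16499 probes with signal above background (detection p under 0.01). Values are log2 signals after background correction and quantile normalization, and arrays correlated at r = 0.956 to 0.986 within Dnmt1-/- and 0.972 to 0.987 within Dnmt1+/+ MEFs, against 0.876 to 0.938 between them, across tested probes. Dnmt1 itself measured 8.16, 7.06 and 7.42 in Dnmt1-/- MEFs and 9.79, 9.74 and 9.42 in Dnmt1+/+ MEFs, 4.31-fold lower in Dnmt1-/- (limma adjusted p = 0.0019), and where its probe (ILMN_2720451) lies relative to the allele is not given in the sources used here. Fibroblast markers were above background for 8 of 10 genes in Dnmt1-/- and 9 of 10 in Dnmt1+/+ MEFs, with summed signals of 13272 to 15266 in Dnmt1-/- and 14063 to 16894 in Dnmt1+/+ MEFs. Vim was the brightest of them (13.05 to 13.45 in Dnmt1-/- and 13.45 to 13.51 in Dnmt1+/+ MEFs). The sums, taken on the linear scale, thus say little about the dimmer markers. Of the fibroblast markers S100a4 rose (2.98-fold, limma adjusted p = 0.030) and Thy1 fell (at least 2.11-fold, adjusted p = 0.0032). Thy1 gave background signal on all 3 Dnmt1-/- arrays and passed the filter only through the Dnmt1+/+ arrays. Of the epithelial, liver, blood and endothelial markers, at most 1 gene per list was above background on any array of either group. Krt8 was above it on 2 Dnmt1-/- arrays and Csf1r on 3, while Tek was above it on 1 Dnmt1+/+ array. Summed epithelial signal was 133 to 146 in Dnmt1-/- and 123 to 130 in Dnmt1+/+ MEFs.

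Of the 20 probes of the 10 genes, 10 were above background on at least 3 of the 6 arrays and entered the fit. They represent 6 genes. The other 10 probes did not, of which 7 were above background on no array and 3 on some, and 4 genes (Aldh1a1, Aldh1a2, Aldh1a7 and Aldh7a1) had no tested probe. In Dnmt1-/- MEFs 7 of the tested probes were called higher, where 8.48% of all tested probes were, and 1 was called lower, where 7.69% were. By gene these were 4 called higher (9.61% of all tested genes) and 1 called lower (7.82%). For 8 of the 10 tested probes the 2 groups of arrays did not overlap, as for 38.1% of all tested probes in either direction. Since the genes were picked on this contrast, nothing is read from these counts. In bulk RNA, fewer cells that express a gene and less RNA per cell cannot be told apart.

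**Figure D1:**
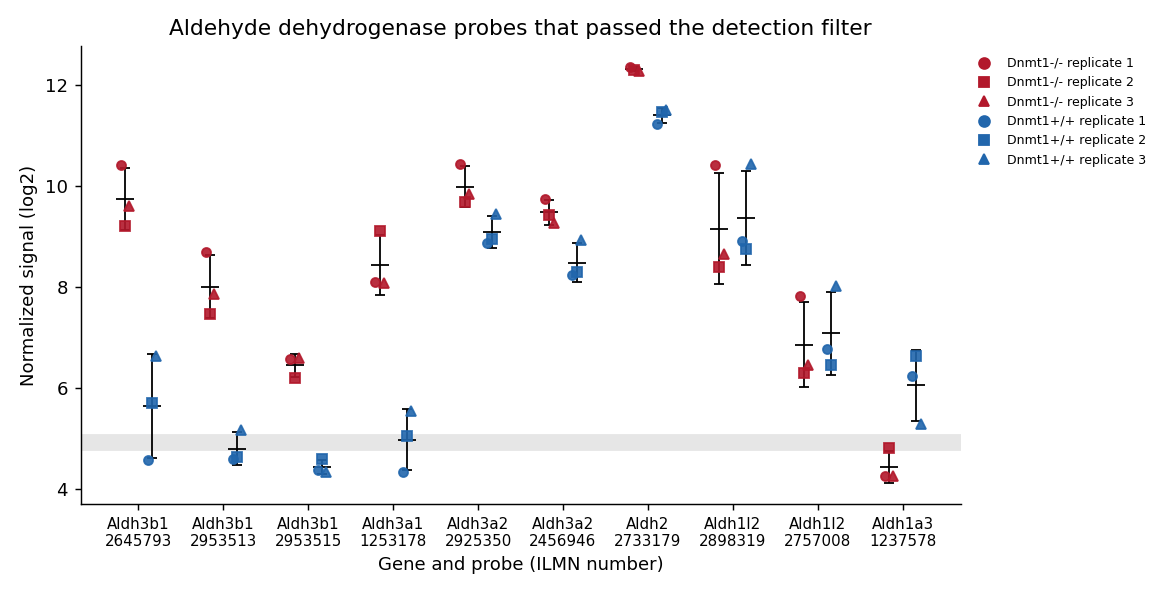
Normalized log2 signal (vertical axis) of the 10 tested probes, for Dnmt1-/- (red, left of each pair) and Dnmt1+/+ (blue, right) arrays, with 1 symbol per array and the mean ± SD of 3 arrays in black. The grey band spans the lowest detected signal of each array, 4.77 to 5.07. Every Aldh3b1 and Aldh3a1 probe lies above the band in Dnmt1-/- MEFs and lower in Dnmt1+/+ MEFs, where the arrays range from 4.34 to 6.63, whereas Aldh2 and Aldh3a2 are above the band in both.

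Among the fatty aldehyde enzymes, Aldh3b1 was far higher in Dnmt1-/- MEFs on all of its 3 probes. Aldh3b1 encodes a membrane-bound enzyme for medium- and long-chain aldehydes of lipid peroxidation. Its probe ILMN_2645793 measured 10.42, 9.21 and 9.60 in Dnmt1-/- MEFs, against 4.58, 5.71 and 6.63 in Dnmt1+/+ MEFs. Every Dnmt1-/- array was thus above every Dnmt1+/+ array, and only 2 of the 3 Dnmt1+/+ arrays had signal above background. The difference was 4.10 ± 0.50 (SE, n = 3 each), at least 15.6-fold. Here "at least" sets each array below background to the lowest detected signal of that array, where this is the higher value. Raw signals of the same probe were 1961, 489 and 511 in Dnmt1-/- MEFs and 111, 144 and 189 in Dnmt1+/+ MEFs, and the groups were apart on that scale too. Dnmt1-/- replicate 1, which had the highest mean raw signal of all arrays, gave the highest value. Without the 2 dimmer Dnmt1-/- arrays, an alternative chosen after seeing the data that leaves Dnmt1-/- replicate 1 alone, the bound was 25.0-fold.

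The other 2 probes of Aldh3b1 showed the same direction with smaller differences. ILMN_2953513 measured 8.69, 7.46 and 7.86 in Dnmt1-/- MEFs, against 4.59, 4.63 and 5.17 in Dnmt1+/+ MEFs, where 1 array was above background. Its difference was 3.21 ± 0.32, at least 7.83-fold, and the bound was 12.6-fold without the 2 dimmer Dnmt1-/- arrays. ILMN_2953515 measured 6.58, 6.19 and 6.59 in Dnmt1-/- MEFs and 4.38, 4.59 and 4.34 in Dnmt1+/+ MEFs, where it was not above background on any array. That is at least 2.87-fold higher, and the probe passed the filter only through the Dnmt1-/- arrays. All 3 probes carry the same RefSeq accession (NM_026316), but probe sequences were not used here, so how far each could bind RNA of the neighbouring paralogues Aldh3b2 and Aldh3b3 was not tested. The only Aldh3b2 probe was below background on all 6 arrays and Aldh3b3 had no probe.

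Aldh3a1, which encodes an enzyme abundant in cornea and inducible by xenobiotics, was likewise near background in Dnmt1+/+ MEFs. Probe ILMN_1253178 measured 8.10, 9.11 and 8.08 in Dnmt1-/- MEFs, against 4.34, 5.04 and 5.55 in Dnmt1+/+ MEFs, of which 2 were above background. The groups did not overlap, and the difference was 3.45 ± 0.37, at least 9.41-fold. Unlike for Aldh3b1, the highest array was Dnmt1-/- replicate 2. The raw signals were 495.3, 466.4 and 230.4 in Dnmt1-/- MEFs and 105.3, 122.5 and 134.2 in Dnmt1+/+ MEFs.

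Aldh3a2 differed less. It encodes the fatty aldehyde dehydrogenase of the endoplasmic reticulum, which handles the hexadecenal released from sphingolipids and whose loss causes Sjögren-Larsson syndrome in humans. It was well above background on all 6 arrays with both of its RefSeq probes. ILMN_2925350 measured 10.44, 9.68 and 9.84 in Dnmt1-/- MEFs and 8.87, 8.95 and 9.45 in Dnmt1+/+ MEFs, 1.86-fold higher (difference 0.90 ± 0.25). ILMN_2456946 measured 9.74, 9.43 and 9.26 in Dnmt1-/- MEFs and 8.23, 8.30 and 8.92 in Dnmt1+/+ MEFs, 1.99-fold higher (1.00 ± 0.23). The groups did not overlap on either probe, but the gap was narrow, since Dnmt1+/+ replicate 3 came close to the lower Dnmt1-/- arrays. The gene lost its call with no background correction, median scaling, no filter, a replicate block or detection required on all 6 arrays. The same held without Dnmt1-/- replicate 1 or 3 or Dnmt1+/+ replicate 1 or 2, where the difference of the gene's brighter probe was 0.67, 0.97, 0.79 and 0.83. Raw signals of that probe overlapped, with 1983, 653.1 and 585.1 in Dnmt1-/- MEFs and 612, 649.8 and 811 in Dnmt1+/+ MEFs. Its other 2 probes, from cDNA clones, were below background on all 6 arrays.

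**Figure D2:**
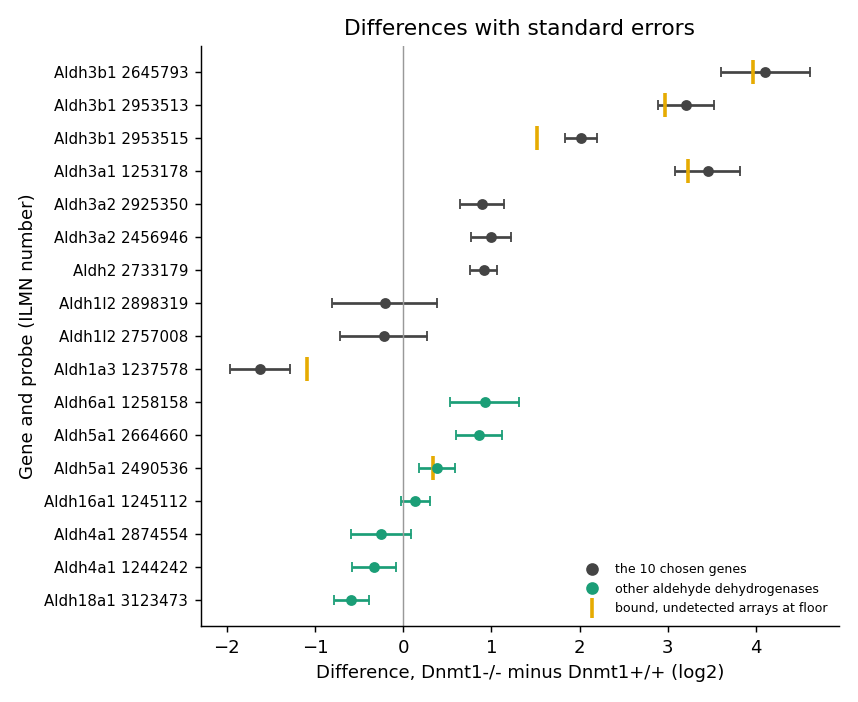
Difference between Dnmt1-/- and Dnmt1+/+ MEFs (log2, horizontal axis) with its standard error for each tested probe of the 10 chosen genes (black) and of the other aldehyde dehydrogenases (green). Yellow ticks mark the bound with arrays below background set to their lowest detected signal. Aldh3b1 and Aldh3a1 lie between 2.02 and 4.10, Aldh2 and Aldh3a2 near 0.9, Aldh1l2 near 0 and Aldh1a3 at -1.62.

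Of the mitochondrial enzymes, Aldh2 was evenly higher in Dnmt1-/- MEFs, whereas Aldh1l2 varied as much within a genotype as between them. Aldh2 (ILMN_2733179) measured 12.36, 12.29 and 12.28 in Dnmt1-/- MEFs and 11.22, 11.47 and 11.50 in Dnmt1+/+ MEFs. The arrays of a group lay close together, with an SD of 0.04 in Dnmt1-/- and 0.16 in Dnmt1+/+ MEFs, and the groups stood apart by 0.91 ± 0.16 (SE), a 1.88-fold higher level. On the raw scale the separation was not visible, with 6916, 3831 and 2953 in Dnmt1-/- MEFs and 2955, 3419.7 and 3009.8 in Dnmt1+/+ MEFs. The separation appears only after the arrays are scaled to each other.

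Aldh1l2, the mitochondrial formyltetrahydrofolate dehydrogenase of folate metabolism, had no direction on its tested probes. ILMN_2898319 measured 10.42, 8.40 and 8.65 in Dnmt1-/- MEFs and 8.90, 8.76 and 10.44 in Dnmt1+/+ MEFs. Dnmt1-/- replicate 1 and Dnmt1+/+ replicate 3 stood about equally high, and the other 4 arrays lay between 8.40 and 8.90. The difference was -0.21 ± 0.60. ILMN_2757008 showed the same arrays high, with 7.83, 6.29 and 6.46 in Dnmt1-/- MEFs and 6.77, 6.46 and 8.01 in Dnmt1+/+ MEFs (difference -0.22 ± 0.49). The sign turned with the array left out, between -0.84 without Dnmt1-/- replicate 1 and 0.33 without Dnmt1+/+ replicate 3 for the brighter probe. The third probe (ILMN_1244746) was above background on 2 Dnmt1+/+ arrays only and was not tested.

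The same 2 arrays were high for collagen I and decorin, genes of the fibroblast matrix. Col1a1 measured 11.63, 10.25 and 11.02 in Dnmt1-/- MEFs and 10.82, 10.56 and 12.01 in Dnmt1+/+ MEFs. Col1a2 measured 8.80, 6.30 and 7.45 in Dnmt1-/- MEFs and 7.23, 7.35 and 8.59 in Dnmt1+/+ MEFs. For both, Dnmt1-/- replicate 1 and Dnmt1+/+ replicate 3 were the highest of their group, as for Aldh1l2, and neither passed the test (limma adjusted p = 0.827 and 0.850). Dcn (ILMN_2747959) followed with 9.57, 5.96 and 6.35 in Dnmt1-/- MEFs and 7.81, 5.30 and 8.21 in Dnmt1+/+ MEFs. These genes were set beside Aldh1l2 after their values were seen. Across all tested probes, the deviations of the 2 arrays from their group means correlated at 0.433, the highest of the 9 pairs of a Dnmt1-/- with a Dnmt1+/+ array (-0.442 to 0.433). Probes of an array are not independent, and the part of this in the Aldh1l2 values was not tested.

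**Figure D3:**
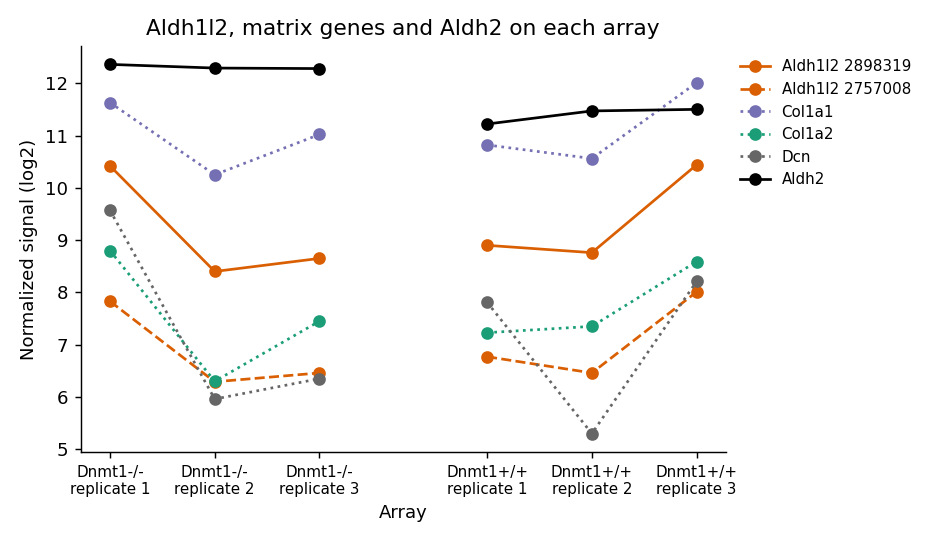
Normalized log2 signal (vertical axis) on each array, Dnmt1-/- on the left and Dnmt1+/+ on the right, for both tested Aldh1l2 probes (orange), Col1a1, Col1a2 and Dcn (dotted) and Aldh2 (black). The lines join arrays of a genotype only to guide the eye. Aldh1l2 and the matrix genes peak on Dnmt1-/- replicate 1 and Dnmt1+/+ replicate 3, while Aldh2 stays between 12.28 and 12.36 and between 11.22 and 11.50.

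The retinaldehyde enzymes gave little signal in either genotype. Aldh1a1, an enzyme of adult epithelia and stem cells, had 1 probe, which measured 4.23 to 4.32 in Dnmt1-/- and 4.24 to 4.30 in Dnmt1+/+ MEFs and was below background throughout. Aldh1a2, the main source of retinoic acid in the early embryo, had 2 probes, both also below background on all 6 arrays. Aldh1a7, a rodent paralogue that neighbours Aldh1a1, was above background on 1 array, Dnmt1+/+ replicate 3, at 5.16, where the others lay between 4.28 and 4.70.

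Aldh1a3 was the exception, and on 1 of its 3 probes only. ILMN_1237578, which matches a cDNA clone (AK043530), measured 4.25, 4.81 and 4.25 in Dnmt1-/- MEFs, none above background, against 6.24, 6.64 and 5.28 in Dnmt1+/+ MEFs, all above it. The difference was -1.62 ± 0.34, a fold of at least 2.13 downwards, and the probe passed the filter only through the Dnmt1+/+ arrays. The call was lost without Dnmt1-/- replicate 3 (difference -1.53), Dnmt1+/+ replicate 1 (-1.53) or Dnmt1+/+ replicate 2 (-1.33). It was also lost with no background correction, median scaling or no filter. The RefSeq probe of Aldh1a3 (ILMN_2761436, NM_053080) measured 4.35, 4.36 and 4.21 in Dnmt1-/- and 4.34, 4.47 and 4.25 in Dnmt1+/+ MEFs, below background on all arrays, as was the probe for a second clone. The probes thus disagree, and which transcript the clone probe reports was not tested.

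Aldh7a1, which acts on the semialdehyde of lysine breakdown and whose loss causes pyridoxine-dependent epilepsy in humans, was above background on Dnmt1-/- replicate 1 alone. Its values were 4.79, 4.25 and 4.77 in Dnmt1-/- and 4.50, 4.39 and 4.40 in Dnmt1+/+ MEFs. The groups overlapped at the level of background.

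**Figure D4:**
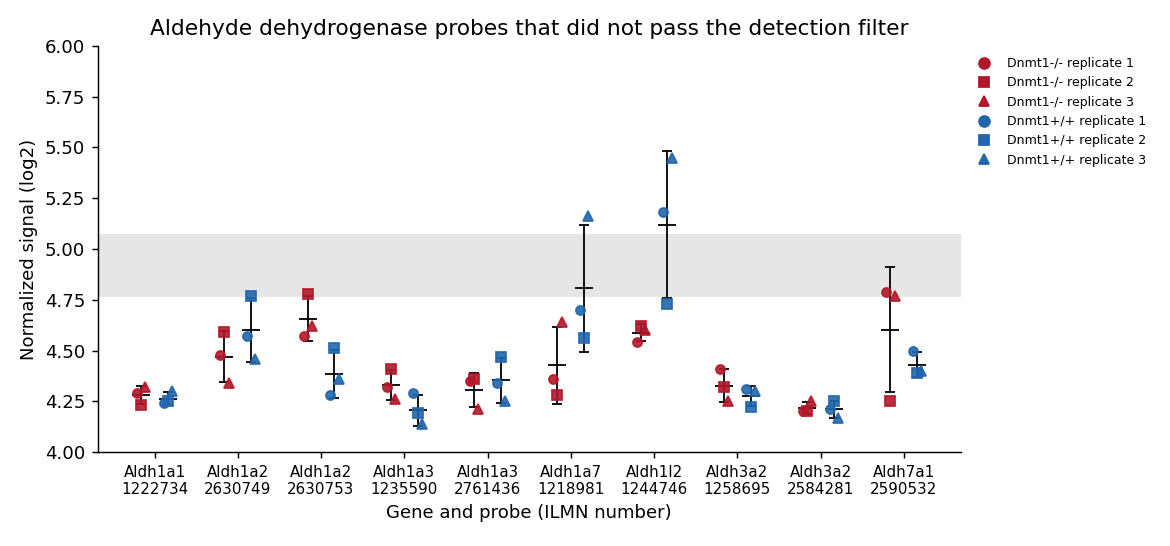
Normalized log2 signal (vertical axis, 4 to 6) of the 10 probes that were above background on fewer than 3 arrays, with Dnmt1-/- (red) left of Dnmt1+/+ (blue), 1 symbol per array and the mean ± SD of 3 arrays. The grey band spans the lowest detected signal of each array, 4.77 to 5.07. Points above the band belong to Aldh1a7 and Aldh1l2 on Dnmt1+/+ arrays.

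The rest of the family was taken whole for comparison. Of 11 other aldehyde dehydrogenases 10 had a probe and 5 were tested. None passed (limma, 0 called in either direction, against 2 higher and 1 lower at an unadjusted p under 0.05). Of all tested genes 9.61% were called higher and 7.82% lower, so 0 of 5 is not read as a result. The median difference of the 5 was 0.14, where that of all tested genes was -0.05. With detection required on all 6 arrays this median was -0.055, so it has no settled sign. Aldh5a1, the mitochondrial enzyme for succinic semialdehyde, measured 7.74, 7.83 and 7.38 in Dnmt1-/- and 6.22, 7.14 and 7.0 in Dnmt1+/+ MEFs (difference 0.86 ± 0.26, adjusted p = 0.060). Aldh18a1, which makes the precursor of proline, measured 9.32, 9.14 and 9.46 in Dnmt1-/- and 9.69, 9.76 and 10.22 in Dnmt1+/+ MEFs (-0.59 ± 0.19, adjusted p = 0.077). On these probes the groups did not overlap, yet neither passed. The other tested probe of Aldh5a1 (ILMN_2490536) did overlap, with 5.78, 5.44 and 5.42 in Dnmt1-/- and 4.84, 5.17 and 5.48 in Dnmt1+/+ MEFs (0.39 ± 0.21, adjusted p = 0.238). Aldh6a1, of valine breakdown, differed by 0.92 ± 0.39 (adjusted p = 0.147) and passed only without the 2 dimmer Dnmt1-/- arrays (1.75, adjusted p = 0.028). Aldh4a1 of proline breakdown (-0.25, adjusted p = 0.648) and Aldh16a1 (0.14, adjusted p = 0.588) overlapped between groups. Aldh1b1, Aldh1l1, Aldh3b2, Aldh8a1 and Aldh9a1 were not tested, and of these only Aldh1l1, the cytosolic counterpart of Aldh1l2, was above background at all, on 1 Dnmt1-/- array. Whether the chosen genes and the rest of the family differ was not tested, since the chosen genes were picked by their difference.

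Around the retinaldehyde enzymes, calls among carriers and receptors of retinoids were few. Of 33 genes of retinoid metabolism and signalling with a probe, 16 were tested, 2 rose, 2 fell and 12 did not pass, with a median difference of 0.25. These are 12.5% in each direction, against 9.61% higher and 7.82% lower of all tested genes, which is too near to be read as a result about the list. Rbp2, an intracellular retinol-binding protein known from the gut, measured 6.49, 7.03 and 6.65 in Dnmt1-/- MEFs, all above background, and 4.36, 4.44 and 4.64 in Dnmt1+/+ MEFs, none above it. It rose at least 3.46-fold (limma adjusted p = 0.00018, in a fit it entered through the Dnmt1-/- arrays alone). Rarg, a retinoic acid receptor, rose 1.92-fold (adjusted p = 0.034), a call that was lost without Dnmt1-/- replicate 1 or 3 or Dnmt1+/+ replicate 1 or 2 (adjusted p = 0.055, 0.114, 0.122 and 0.129).

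Crabp1 fell. It encodes a cellular retinoic acid-binding protein that carries the product of the Aldh1a enzymes, and it measured 5.69, 4.92 and 4.92 in Dnmt1-/- MEFs, against 8.0, 7.87 and 8.91 in Dnmt1+/+ MEFs. This was a level at least 7.95-fold lower (adjusted p = 0.00052), with 1 Dnmt1-/- array above background. Fabp5, a fatty acid-binding protein that can also carry retinoic acid, fell at least 1.49-fold (adjusted p = 0.0018) and was above background on Dnmt1+/+ arrays only. It passed the filter through those arrays alone, and its other probe was below background on every array. Rdh10, which makes retinaldehyde from retinol, differed by 0.50 (adjusted p = 0.095) and Crabp2 by -0.24 (adjusted p = 0.525). Rarb and Cyp26b1, targets of retinoic acid in many tissues, were not tested. The 3 Rarb probes measured 4.21 to 4.87 in Dnmt1-/- and 4.22 to 4.51 in Dnmt1+/+ MEFs, above background on Dnmt1-/- replicate 1 only, and Cyp26b1 was below background on all arrays.

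For the fatty aldehyde branch, 21 genes of fatty aldehyde and sphingolipid breakdown had a probe and 14 were tested, of which 3 rose, 1 fell and 10 did not pass (median 0.19). Higher calls were 21.4% against 9.61% of all tested genes, and lower calls 7.14% against 7.82%. This list too was chosen with earlier results of these data known, so nothing is read from these shares. Sphk1, the kinase that makes sphingosine phosphate upstream of the aldehyde that Aldh3a2 clears, measured 11.06, 9.55 and 9.95 in Dnmt1-/- MEFs and 7.41, 7.46 and 8.23 in Dnmt1+/+ MEFs, and rose 5.59-fold (limma adjusted p = 0.0047). Of the other Sphk1 probes, ILMN_2650336 was below background on every array and ILMN_2732199 above it on Dnmt1-/- replicate 1 only. Sgpl1, the lyase that releases the aldehyde that Aldh3a2 clears, differed by 0.40 and did not pass (adjusted p = 0.124). Akr1b10, an aldo-keto reductase, rose 2.80-fold (adjusted p = 0.023) but not without Dnmt1+/+ replicate 1 (0.076) or 2 (0.064). Cbr3, a carbonyl reductase, rose 1.66-fold (adjusted p = 0.021) but not without Dnmt1-/- replicate 3 (0.070), Dnmt1+/+ replicate 1 (0.076) or Dnmt1+/+ replicate 3 (0.061). The other tested probe of Cbr3 (ILMN_2608811) did not pass (0.77, limma adjusted p = 0.0645). Its paralogue Cbr1 fell at least 2.94-fold (adjusted p = 0.0019), so the 2 carbonyl reductases moved in opposite directions by their brightest probes. Cbr1 measured 4.36, 4.31 and 4.76 in Dnmt1-/- MEFs, none above background, and 5.94, 6.93 and 6.69 in Dnmt1+/+ MEFs. It passed the filter only through the Dnmt1+/+ arrays.

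Aldh3a1 belongs to the gene battery of the aryl hydrocarbon receptor, a receptor for planar aromatic compounds. Of 12 other genes of the battery and its regulators with a probe, 7 were tested, and 4 rose, 0 fell (0 also at an unadjusted p under 0.05, limma) and 3 did not pass, with a median difference of 2.89. That is 57.1% called higher, against 9.61% of all tested genes, and 0 lower, against 7.82%. Of the 4, Ugt1a6a and Ugt1a6b passed the filter only through the Dnmt1-/- arrays, where a difference follows from the filter. The list was chosen with earlier results of these data known, so nothing is read from this share. The median depended on the filter and the background correction, since it was 0.20 with detection required on all 6 arrays, where 1 gene rose, 0.20 with no filter, 1.476 with the authors' processed values and 1.499 with no background correction. Nqo1, a quinone reductase, measured 10.13, 10.73 and 10.63 in Dnmt1-/- MEFs and 6.58, 6.73 and 7.33 in Dnmt1+/+ MEFs, a 12.2-fold rise (adjusted p = 6.3e-05). The other Nqo1 probe (ILMN_2766386) was below background on every array. Gsta1, a glutathione transferase, measured 7.81, 8.02 and 8.26 in Dnmt1-/- MEFs and 4.83, 5.21 and 5.39 in Dnmt1+/+ MEFs and rose at least 7.11-fold (adjusted p = 6.8e-05). The glucuronosyltransferases Ugt1a6a and Ugt1a6b rose at least 6.35-fold and 9.80-fold (adjusted p = 0.0014 and 0.00026), and neither was above background on any Dnmt1+/+ array. Of the other Ugt1a6a probes, ILMN_2418855 was also called higher (at least 3.64-fold), and ILMN_2795317 was above background on Dnmt1-/- replicate 1 alone. Ugt1a6a and Ugt1a6b share much of their sequence, so their signals may not be separate. Cyp1b1, a cytochrome that the receptor induces, did not pass (9.77, 8.91 and 8.88 in Dnmt1-/- and 9.76, 8.78 and 8.71 in Dnmt1+/+ MEFs, adjusted p = 0.862), nor did Arnt, the receptor's partner (0.30, adjusted p = 0.509), or Nfe2l2, the NRF2 factor that also acts on Nqo1 and Gsta1 (-0.11, adjusted p = 0.671). Ahr itself was below background on all 6 arrays, as were Cyp1a1 and Cyp1a2, cytochromes of the same list. Ahrr and Tiparp were above background on 1 Dnmt1-/- array each and were not tested.

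Among 17 one-carbon folate enzymes with a probe, the setting of Aldh1l2, 13 were tested, with a median of -0.30. Of these 1 rose (7.69%, against 9.61% of all tested genes) and 0 fell, against 7.82% (limma, 1 lower at an unadjusted p under 0.05). Gldc, of the glycine cleavage system, measured 9.14, 8.29 and 8.41 in Dnmt1-/- MEFs and 4.77, 6.56 and 6.69 in Dnmt1+/+ MEFs and rose at least 5.78-fold (adjusted p = 0.010). Its difference was 2.61, and 1.99 without Dnmt1+/+ replicate 1. Mthfd2 (-0.30, adjusted p = 0.283) and Shmt2 (-0.15, adjusted p = 0.567), mitochondrial enzymes of the same pathway, did not pass. For Aldh7a1, 13 genes of lysine and choline breakdown had a probe and only 2 were tested, with 0 called (limma, 0 also at an unadjusted p under 0.05). At 9.61% higher and 7.82% lower of all tested genes, nothing is read from 2 genes. Several genes named in these lists (Rbp2, Fabp5, Cbr1, Ugt1a6a and Ugt1a6b) passed the filter through 1 group only, where a difference follows from the filter.

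**Figure D5:**
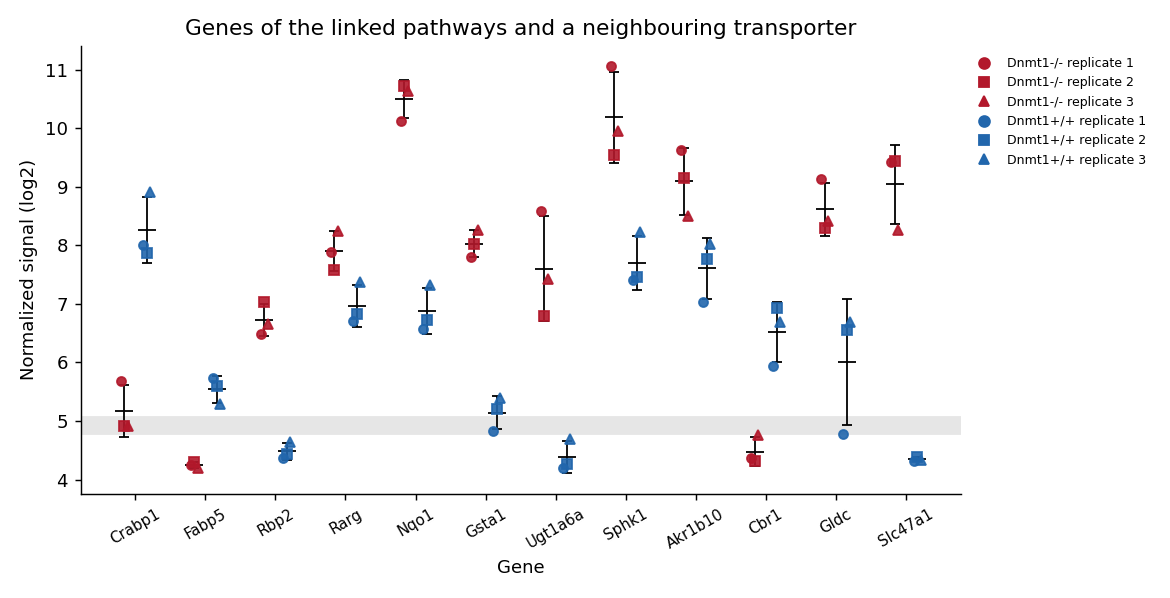
Normalized log2 signal (vertical axis) of genes linked to the aldehyde dehydrogenases by pathway and of Slc47a1, a neighbour of Aldh3a2, with Dnmt1-/- arrays (red) left of Dnmt1+/+ arrays (blue), 1 symbol per array and the mean ± SD of 3 arrays. The grey band spans the lowest detected signal of each array. Crabp1, Fabp5 and Cbr1 are lower in Dnmt1-/- MEFs, and the other 9 genes are higher. Only genes that were called are drawn. The called genes Cbr3, Ugt1a6b, Tcirg1 and Acad10 and the named genes that did not pass are left out.

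The genes around the 6 tested members were examined next, as the 2 protein-coding genes on each side by RefSeq order (GRCm38.p6). Of 20 neighbours outside the group 16 had a probe and 11 were tested, of which 3 rose and 0 fell (limma, 0 lower also at an unadjusted p under 0.05), where 9.61% of all tested genes rose and 7.82% fell. Of the 3, Slc47a1 and Acad10 passed the filter only through the Dnmt1-/- arrays, so that a difference follows from the filter and leaves Tcirg1 as the one call that does not depend on it. Aldh3a1 and Aldh3a2 lie side by side on chromosome 11, followed by Slc47a2 and Slc47a1. Slc47a1, which exports organic cations, measured 9.42, 9.44 and 8.27 in Dnmt1-/- MEFs and 4.32, 4.39 and 4.33 in Dnmt1+/+ MEFs, where no array was above background. Its level was at least 17.3-fold higher in Dnmt1-/- MEFs (adjusted p = 4.2e-05, in a fit it entered through those arrays alone). Slc47a2, between it and Aldh3a2, was below background on all arrays, and Usp22, on the other side of Aldh3a1, differed by 0.23 (adjusted p = 0.300). Along this stretch Aldh3a1 and Slc47a1 were near or below background in Dnmt1+/+ MEFs only, Aldh3a2 was above it in both genotypes, and Slc47a2 was below it in both.

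Near Aldh3b1 on chromosome 19, Tcirg1, a subunit of the proton pump of osteoclasts, measured 9.34, 8.84 and 9.11 in Dnmt1-/- and 7.84, 8.22 and 8.28 in Dnmt1+/+ MEFs and rose 1.98-fold (adjusted p = 0.014). It did not pass without Dnmt1-/- replicate 3 (0.054) or Dnmt1+/+ replicate 1 (0.052). Ndufs8, which lies between Tcirg1 and Aldh3b1 and encodes a subunit of respiratory complex I, differed by 0.20 (adjusted p = 0.462). Near Aldh2 on chromosome 5, Acad10, an acyl-CoA dehydrogenase family gene, measured 5.16, 5.57 and 5.46 in Dnmt1-/- MEFs, all above background, and 4.54, 4.56 and 4.45 in Dnmt1+/+ MEFs, none above it, at least 1.38-fold higher (adjusted p = 0.010). Acad12, which lies between them, differed by 0.54 (adjusted p = 0.169). The neighbours of Aldh1a3 on chromosome 7 (Lrrk1 at -0.19, Lins1 at -0.20) and of Aldh1l2 on chromosome 10 (Washc4 at 0.13, D10Wsu102e at -0.41, Slc41a2 at -0.13) did not pass.

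Promoter windows of 300 bases around the start were given for 5 of the 10 genes, as 6 windows of 32851. The Aldh1a2 window held 50 CpGs (percentile 99.2 of all windows), and Aldh3a2 held 21 (percentile 76.0), where the median window held 7 and the quartiles were 3 and 20. Aldh3b1 held 6 (percentile 45.7), of which 5 lie in the stretch printed above, while the 2 Aldh1a1 windows held 3 and 1 and Aldh1a7 held 1. Among these the gene with the densest window, Aldh1a2, was below background in both genotypes. Aldh3b1, whose bound was 2.87-fold to 15.6-fold higher depending on the probe, had a window close to the median. The letters GCGTG, the core that the aryl hydrocarbon receptor and its partner bind, were searched on both strands and occurred in 32.4% of all windows, among them those of Aldh3a2 and Aldh1a2. TGACNNNGC, the core of the antioxidant response element, occurred in 12.4% of all windows and among the 6 only in that of Aldh1a2. A match of either motif can share the letters GC with the other. The windows of Aldh1a3, Aldh1l2, Aldh2, Aldh3a1 and Aldh7a1 were not examined.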

How the data were processed

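Total RNA from Dnmt1-/- and Dnmt1+/+ MEFs (3 arrays each) was hybridized to Illumina BeadChips. The deposited table holds a raw intensity for each probe and array, with no background subtracted, and a detection p-value against negative control beads. Per the labels and methods, the authors also processed the intensity values with lumi (background subtraction forced positive, variance-stabilizing transformation, robust spline normalization), and that deposited table is on a linear scale and served as an alternative.

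The raw table (45281 probes) was taken through neqc (limma 3.58.1, R 4.3.3; normexp with controls inferred from detection p-values, offset 16, quantile normalization, log2). Probes with detection p under 0.01 on at least 3 of 6 arrays were tested (15795, 34.9%) with lmFit and eBayes, group as the only term, two-sided, Benjamini-Hochberg over all tested probes, with calls at adjusted p under 0.05. For each of 8716 genes the brightest tested probe on average stood for the gene. In the platform annotation 34885 probes have 1 symbol, 18 several and 10378 none. A bound sets arrays below background to the lowest detected signal of the array, or the probe's own where higher, on the log2 scale. It holds for this processing only. The number of arrays limits the precision.

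The members and gene lists were chosen with earlier results of these data known. Named were all members, the other aldehyde dehydrogenases with a probe, up to 4 called genes per list with the largest difference, 10 further genes whatever their call, and Dnmt1. Neighbours, S100a4, Thy1 and the matrix genes were named after their values were seen. Sequences are from RefSeq (GRCm38.p6), whose promoter table matched 5 members. Alternatives were the authors' processed values, no background correction, median scaling, cyclic loess, 3 detection filters, a replicate block, every tested probe, and leaving out each array. The steps were tested on simulated data.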

Additional observations from a re-analysis of the deposited data

How the results depend on the processing

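Of the differences recomputed here, none that passed the threshold changed sign under the 16 alternatives. Among those that did not pass, Aldh1l2 changed sign (-0.84 to 0.33 for ILMN_2898319 and -0.71 to 0.24 for ILMN_2757008 with 1 array left out, 1.05 and 0.75 without the 2 dimmer Dnmt1-/- arrays), as did Cyp1b1 (-0.19 to 0.44 with 1 array left out, against 0.11), Aldh4a1 (0.03 without Dnmt1+/+ replicate 3 and 0.38 without the dimmer arrays, against -0.25), Crabp2 (0.16 without the dimmer arrays, against -0.24), the median of the other aldehyde dehydrogenases (-0.055 with detection on all 6 arrays, against 0.139) and that of all tested genes (0.01 with cyclic loess, against -0.05). Member calls were made on the contrast that chose the members, and their persistence is no support. Sizes depended on background correction. With the authors' processed values the difference of Aldh3b1 (ILMN_2645793) was 2.61 and that of Aldh3a1 1.84, and with no background correction 2.76 and 1.89, against 4.10 and 3.45. Differences of probes at background in 1 group are known only as bounds. Of the values for single genes outside the members, 21 fell back past the threshold under an alternative and 2 came to pass it.

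With detection required on all 6 arrays, 719 probes were called higher and 663 lower (476 and 399 genes), against 1339 and 1214 (838 and 682 genes), since fewer were tested. Member genes were then 1 higher and 0 lower, retinoid genes 1 and 0, one-carbon genes 0 higher, fatty aldehyde genes 0 lower and receptor battery genes 1 higher. With no filter 554 genes were higher, with 0 members lower, 1 retinoid and 0 one-carbon genes higher. Median scaling gave 858 genes higher and 429 lower (686 probes lower), so that 66.7% of called genes were higher, against 55.1%, and 62.9% with cyclic loess. Retinoid genes were 4 higher and 1 lower, and members 0 lower, as with no background correction. Rdh10 passed under median scaling (0.76, adjusted p = 0.041). Without the 2 dimmer Dnmt1-/- arrays, chosen after seeing the data, the lone Dnmt1-/- array is assumed to vary like the others. Then 0 members were lower, 1 other aldehyde dehydrogenase (Aldh6a1) was higher and 3 one-carbon genes were lower. Where fewer genes or arrays do not account for a shift, the cause was not tested.

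Leaving out each array in turn, 714 to 1323 probes were called higher and 453 to 1170 lower (458 to 820 and 281 to 661 genes), lowest without Dnmt1+/+ replicate 2. Member genes were 3 to 4 higher and 0 to 1 lower, retinoid genes 1 to 2 higher and 2 to 3 lower, and fatty aldehyde genes 1 to 4 higher.

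Same-numbered arrays had correlations of deviations of -0.23, 0.34 and -0.14 for numbers 1, 2 and 3. The value was 0.43 for Dnmt1-/- replicate 1 with Dnmt1+/+ replicate 3. Deviations from the mean of 3 arrays are tied to each other, so these values cannot decide whether the numbers pair arrays. Nothing in the labels or methods says that they do. With a replicate block 945 probes were higher and 691 lower (609 and 399 genes), 3 members were higher (Aldh3a2 was lost) and 1 lower, and 1 fatty aldehyde gene was higher (Akr1b10 and Cbr3 were lost).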
